A study of Mus musculus with 12 samples.

Results

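The mitochondrial genome of the mouse encodes 13 proteins of the respiratory chain, and a set of nuclear genes encodes the enzymes that copy it, transcribe it and process its RNA. Here 34 genes of this system were followed in epididymal white adipose tissue (eWAT), the 13 protein-coding genes of mitochondrial DNA (mt- genes) and 21 nuclear factors. They were chosen as a fixed list of gene symbols matched to the Ensembl identifiers of an expression table of 23474 genes. All mice were male C57BL/6J, 17 weeks old and individually housed, and had received their diet for 12 weeks. The ND group ate a normal diet, the HFD group a high-fat diet, the GT group the high-fat diet with an ethanol extract of green tea at 0.25% (w/w), and the TJ group the high-fat diet with 3% (w/w) Taeeumjowitang, a herbal preparation. Each of the 4 groups contributed 3 RNA-seq libraries, each from 1 mouse of a group of 10, and levels are given as FPKM (fragment counts scaled to transcript length and to library size).

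Both strands of the circular mitochondrial genome are transcribed into long precursors by a single polymerase, POLRMT, with TFAM and TFB2M at the promoters, and the mRNAs are freed when the tRNAs between them are cut out at both ends. The mRNAs are then polyadenylated and held stable by a complex of LRPPRC and SLIRP, while the helicase SUPV3L1 and the nuclease PNPT1 degrade RNA. In white adipose tissue, mitochondria support adipocyte differentiation and lipid handling, and obesity is commonly studied for its effect on them.

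The libraries held an estimated 9.71M to 19.7M fragments each, values read from the steps between low FPKM values and therefore approximate. The library ND 1 stood apart from the other 11. Its 10 male germ cell markers summed to 100466 FPKM against 0.685 to 3127 FPKM in the others, its 10 epididymis markers to 21364 FPKM against 0.470 to 1291 FPKM, and its adipocyte marker Adipoq was at 202 FPKM against 908 to 3738 FPKM. ND 1 thus held little adipocyte RNA for a library labelled adipose tissue, and the ND results are given with and without it. ND 3 and HFD 1 also contained germ cell RNA, with 502 and 436 FPKM of the sperm protamine gene Prm1, and HFD 2 held 1172 FPKM of the epididymis gene Crisp1. Of 5 brown adipocyte markers, the defining Zic1 stayed under 0.05 FPKM in every library and Ucp1 reached at most 5.05 FPKM, although the 5 summed to between 23.3 and 92.9 FPKM. Skeletal muscle markers summed to at most 7.96 FPKM. In tissue RNA of this kind, fewer cells of a type and less RNA per cell cannot be told apart.

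Of the 34 genes, 33 had a mean of at least 1 FPKM and were tested, and the exception was mt-Nd4l, a complex I subunit. Its reading frame shares its last 7 bases with the start of mt-Nd4, and mt-Atp8 shares its last 43 bases with mt-Atp6. The 2 short reading frames are shown here with the shared bases in capitals (GRCm38, plus strand, chrM:9877-10173 for mt-Nd4l and chrM:7766-7969 for mt-Atp8).
mt-Nd4l: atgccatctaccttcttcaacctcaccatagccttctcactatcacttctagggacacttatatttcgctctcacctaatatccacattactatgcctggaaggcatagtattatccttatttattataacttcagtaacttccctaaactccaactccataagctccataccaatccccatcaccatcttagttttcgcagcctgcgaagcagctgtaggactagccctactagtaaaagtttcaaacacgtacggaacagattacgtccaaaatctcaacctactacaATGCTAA
mt-Atp8: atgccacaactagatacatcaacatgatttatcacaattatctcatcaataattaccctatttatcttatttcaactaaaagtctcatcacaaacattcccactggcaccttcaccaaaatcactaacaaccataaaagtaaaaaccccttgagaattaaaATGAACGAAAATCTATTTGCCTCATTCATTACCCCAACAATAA
The level of mt-Nd4l was listed at 0 in 8 libraries and at 3.02 FPKM at most, although its neighbour mt-Nd4 reached 362 to 9129 FPKM. A nuclear copy of the frame, Gm10222 on chromosome 1 (chr1:24612407-24612700, minus strand), is identical to mt-Nd4l over all 294 bases compared, and was itself at 0 to 4.28 FPKM. Reads of these 2 genes cannot be assigned to either by sequence alone, so neither value is a usable level of the transcript. A total of 6 mt- genes (mt-Atp6, mt-Co2, mt-Co3, mt-Nd3, mt-Nd4 and mt-Nd4l) have an annotated nuclear copy that shares over 50% of their 31-base words, and how the counting divided such reads was not tested. The kit used does not mark strand, so RNA of mt-Nd6, encoded on the minus strand (chrM:13552-14070), cannot be separated from antisense RNA.

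The 12 measurable mt- genes differed widely in level per length. In the HFD group mt-Atp8 was highest, at 18208 ± 5437 FPKM (SD, n = 3), followed by mt-Co1, the catalytic core of cytochrome c oxidase, at 12188 ± 715 FPKM, and mt-Co2 at 6598 ± 173 FPKM. mt-Atp6 at 5124 ± 366 FPKM and mt-Co3 at 5032 ± 266 FPKM could not be separated by their spread, and neither could mt-Nd1, mt-Nd2 and mt-Nd4, whose means lay between 2890 and 2984 FPKM. mt-Cytb stood at 3273 ± 259 FPKM, mt-Nd3 at 2498 ± 327 FPKM, mt-Nd5 at 1977 ± 300 FPKM, and mt-Nd6 had the lowest mean at 1630 ± 111 FPKM. From mt-Cytb down, and for mt-Atp8 and mt-Co1, the mean ± SD ranges of neighbours overlapped, so their order was not resolved. The nuclear factors were far lower, from a few FPKM for Tfb1m and Polg2 to 122 FPKM for Hsd17b10 in TJ 2, with ND 1 set aside. The mean log2(FPKM + 1) of the 12 mt- genes exceeded that of the 21 nuclear factors by 8.39 to 8.64 in the HFD libraries, 8.64 to 8.97 in the GT libraries and 8.75 to 9.29 in the TJ libraries. In the ND group this gap was 6.30 in ND 1, 9.48 in ND 2 and 8.56 in ND 3. The TJ libraries thus lay above every HFD library in the gap between mitochondrial and nuclear genes, whereas the GT and TJ libraries overlapped.

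**Figure D1:**
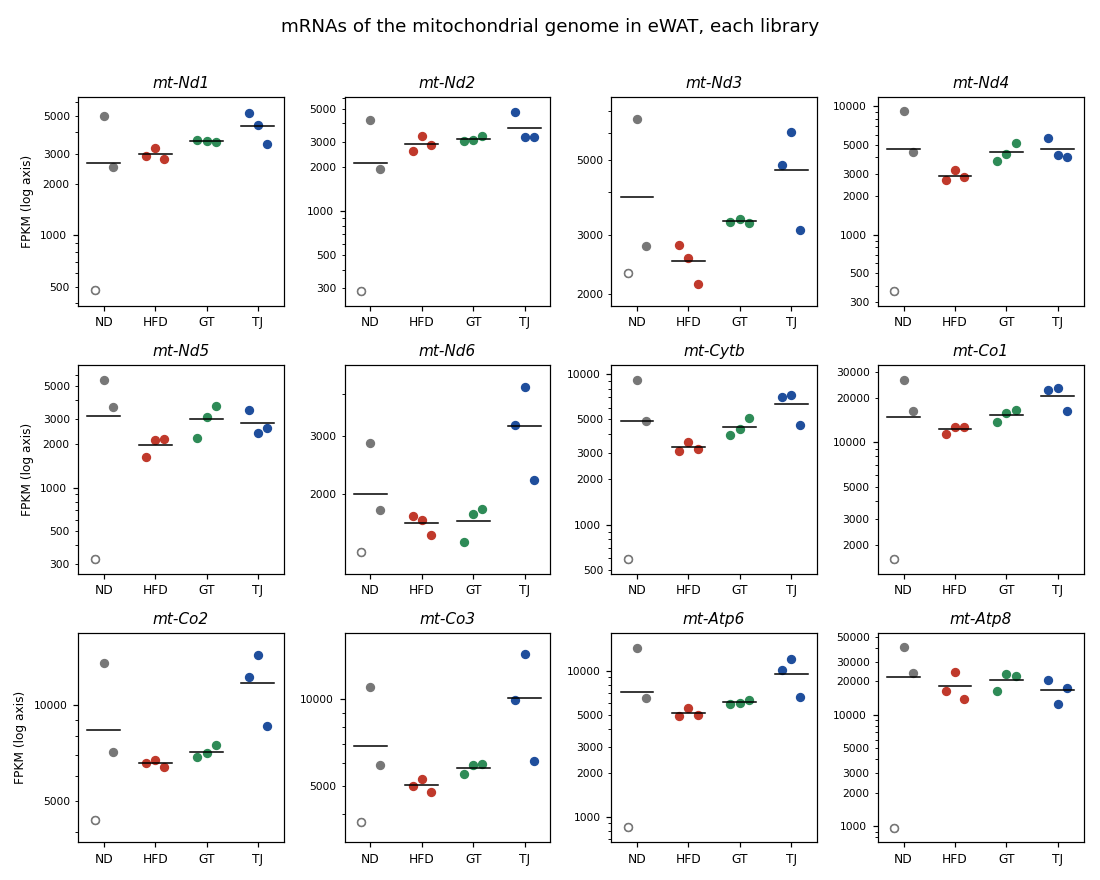
FPKM (log axis, separate range per panel) of the 12 measurable mt- genes in each of the 12 libraries, with the group mean as a line and ND 1 as an open circle. The 3 TJ libraries sit above all 3 HFD libraries for 10 of the 12 genes, and ND 1 lies below every other library for 11.

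The first comparison asked how TJ in the high-fat diet changed these genes. In the TJ group 5 of the 12 tested mt- genes were higher than in the HFD group as differentially expressed genes (DEGs; limma adjusted p under 0.05 and at least 1.5-fold), mt-Nd4, mt-Nd6, mt-Cytb, mt-Co1 and mt-Co2, and none was lower. Among all 12807 genes tested, 18.5% were DEGs, 7.41% higher and 11.1% lower in TJ. For 10 mt- genes the TJ libraries all exceeded the HFD libraries, against 20.1% of all genes. In log2 fold change, 11 of the 12 lay above 0, against 40.8% of all genes, and the median log2 fold change of the mt- genes was 0.77 against -0.14 for all genes. Of the 21 nuclear factors only Slirp was a DEG, with a median of 0.22, 8 factors with all TJ libraries above the HFD libraries, and 3 with all of them below, against 31.4% of all genes. The adjusted p-values lay close to the threshold, and none of the mt- genes was called when any 1 HFD library or TJ 1 was left out. Without TJ 3, 9 were called, where 9.67% of all genes were higher DEGs, and without TJ 2, 5 were called. For the other fits that left out 1 library, the share of all genes is not given here. With the replicate numbers as a block, 0 mt- genes and 0 nuclear factors were called, against 3.35% of all genes as higher DEGs. With a trend of fold change with transcript length removed, 0 mt- genes were called and their median fell to 0.46, while 5.11% of all genes were higher DEGs.

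Among the subunits of complex I, the entry point of electrons from NADH, mt-Nd6 was at 1717, 1669 and 1505 FPKM in the HFD libraries and at 3243, 4211 and 2195 FPKM in the TJ libraries. The groups did not overlap, and mt-Nd6 rose by a log2 fold change of 0.93 ± 0.25 (SE; limma adjusted p = 0.0437). mt-Nd4 was at 2673, 3179 and 2819 FPKM against 5629, 4217 and 4040 FPKM and also rose without overlap, by 0.67 ± 0.19 (limma adjusted p = 0.0489). mt-Nd3, mt-Nd1 and mt-Nd5 did not overlap either, with log2 differences of 0.85, 0.53 and 0.50, but missed the threshold (limma adjusted p = 0.0608, 0.0943 and 0.117). mt-Nd2 was at 2581, 3291 and 2861 FPKM in HFD and at 4774, 3211 and 3218 FPKM in TJ. There TJ 2 and TJ 3 lay within the HFD range, and the log2 difference was 0.34 ± 0.22 (limma adjusted p = 0.259), which turned to -0.03 with the length trend removed.

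mt-Cytb, the cytochrome b of complex III, was at 3064, 3563 and 3194 FPKM in HFD and at 7098, 7233 and 4569 FPKM in TJ. It had the smallest adjusted p of the set, 0.0372 (limma), at a log2 fold change of 0.92 ± 0.22. TJ 3 was the lowest TJ library for this gene and still above all HFD libraries.

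The 3 mt- genes of complex IV, which passes electrons to oxygen, did not overlap between the groups. mt-Co1 was at 11361, 12597 and 12605 FPKM in HFD and 22417, 23404 and 16246 FPKM in TJ, a rise of 0.75 ± 0.21 on the log2 scale (limma adjusted p = 0.0454). mt-Co2 was at 6610, 6765 and 6419 FPKM against 12266, 14394 and 8608 FPKM, a rise of 0.80 ± 0.22 (limma adjusted p = 0.0474). The HFD libraries were tightly grouped in both genes and the spread lay in the TJ group, with TJ 2 highest and TJ 3 lowest. mt-Co3 had the widest TJ range, from 6100 FPKM in TJ 3 to 14445 FPKM in TJ 2, and a log2 difference of 0.93 ± 0.31 that was not called (limma adjusted p = 0.0707).

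The overlapping genes of ATP synthase differed in their FPKM. mt-Atp6, at 4878, 5545 and 4951 FPKM in HFD, was at 10146, 12004 and 6582 FPKM in TJ, with a log2 difference of 0.86 ± 0.25 that narrowly missed the threshold (limma adjusted p = 0.0506). mt-Atp8 was at 16249, 24353 and 14023 FPKM in HFD and at 20622, 12535 and 17412 FPKM in TJ, so that its groups overlapped and TJ 2, the highest library for mt-Co3, was the lowest for mt-Atp8. Its log2 difference was -0.10 ± 0.29 (limma adjusted p = 0.801) and turned to 0.03 under median-of-ratios scaling. At 204 nt, mt-Atp8 is the shortest of the annotated mt- genes, and 43 of its bases also belong to mt-Atp6. These FPKM are values of overlapping reading frames, and whether they reflect separate RNAs was not tested. Without mt-Atp8, the mt- genes summed to 45242, 49874 and 46201 FPKM in HFD and to 88969, 95997 and 60666 FPKM in TJ.

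As a share of all FPKM, the mt- genes made up 11.1%, 13.9% and 11.4% in HFD and 17.4%, 15.0% and 13.6% in TJ. The shares overlapped, since TJ 3 lay below HFD 2, although their FPKM sums of 78078 and 74227 did not. The sum of FPKM over all genes was itself higher in TJ, 574984 to 725245 against 527904 to 552100. When each library was rescaled on the genes outside the mitochondrial genome, the median of the mt- genes was 0.57 and that of all genes -0.31, and 2 mt- genes were called, where 4.34% of all genes were higher DEGs.

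Marker RNA of several cell types also differed between the TJ and HFD groups. All 8 macrophage markers were lower in TJ, 5 of them as DEGs, where 11.1% of all genes were lower DEGs. Their sums were 738 to 2537 FPKM against 3862 to 5682 FPKM in HFD. Of the 9 adipocyte markers 8 had a log2 fold change above 0 and 6 were DEGs that rose, where 7.41% of all genes were higher DEGs. Their sums were 8213 to 12017 FPKM against 5499 to 5591 FPKM. The 5 brown adipocyte markers summed to 49.5 to 88.7 FPKM against 23.3 to 55.0 FPKM, and their 3 tested members included no DEG. All 10 male germ cell markers had a log2 fold change below 0, with a median of -3.12 and no DEG. For 9 of them all TJ libraries lay below the HFD libraries, against 31.4% of all genes. Their sums were 0.685 to 9.46 FPKM against 29.95 to 2130 FPKM. The part of these cell types in the mt- gene differences was not tested.

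The transcription factors of mitochondrial DNA showed no called difference. Tfam, which packages the genome and opens its promoters, was at 30.1, 17.1 and 17.3 FPKM in HFD and at 20.1, 21.6 and 20.1 FPKM in TJ, a log2 difference of -0.01 ± 0.22 (limma adjusted p = 0.978). HFD 1, the HFD library with Prm1, was the highest, and without it the log2 difference was 0.25. Tfb2m, the factor that melts the promoter, and Polrmt, the polymerase, had log2 differences of 0.12 and 0.26 with overlapping groups (limma adjusted p = 0.507 and 0.246), and Tfb1m, a methylase of the ribosomal RNA, one of -0.09 (limma adjusted p = 0.672). Tefm, the elongation factor, was at 7.67, 6.34 and 6.33 FPKM in HFD and 11.1, 10.1 and 7.94 FPKM in TJ, with no overlap and a log2 difference of 0.45 (limma adjusted p = 0.0775). Mterf3, which binds the promoter region, did not overlap either, at 15.1 to 19.5 FPKM against 22.5 to 24.1 FPKM, with a log2 difference of 0.38 (limma adjusted p = 0.0861). Mterf4, needed for assembly of the mitochondrial ribosome, was lower in all TJ libraries, at 10.5 to 10.9 FPKM against a mean of 12.3 FPKM in HFD, with a log2 difference of -0.18 (limma adjusted p = 0.285).

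Of the 6 replication factors 5 had a log2 difference above 0 and none was called. Ssbp1, the single-strand binding protein of the replication fork, was at 16.9, 16.7 and 13.9 FPKM in HFD and at 23.7, 25.6 and 19.1 FPKM in TJ, with a log2 difference of 0.49 ± 0.15 (limma adjusted p = 0.0606). Ssbp1 was called under median-of-ratios scaling, with the length trend removed and without TJ 3, at 0.61, 0.59 and 0.61 (limma adjusted p = 0.0494, 0.0480 and 0.0357). Top1mt, the mitochondrial topoisomerase, and Twnk, the helicase, also had all TJ libraries above the HFD libraries, with log2 differences of 0.47 and 0.34 (limma adjusted p = 0.0969 and 0.177). The groups overlapped for the DNA polymerase subunits Polg and Polg2 and for the exonuclease Mgme1. Their log2 differences were 0.22, 0.26 and -0.14 (limma adjusted p = 0.371, 0.392 and 0.443).

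Partners in RNA metabolism had log2 differences of opposite sign. Slirp was at 38.5, 29.5 and 29.1 FPKM in HFD and at 43.7, 66.8 and 50.8 FPKM in TJ, and rose by 0.70 ± 0.20 on the log2 scale (limma adjusted p = 0.0473). Its binding partner Lrpprc was at 11.2, 11.9 and 11.2 FPKM in HFD and at 8.63, 7.24 and 9.97 FPKM in TJ. All TJ libraries lay below the HFD libraries for Lrpprc, with a log2 difference of -0.38 ± 0.14 that was not called (limma adjusted p = 0.0908). The helicase Supv3l1 had a log2 difference of 0.32 without overlap (limma adjusted p = 0.160), and its partner nuclease Pnpt1 one of -0.44 with overlap (limma adjusted p = 0.135). Mtpap, the poly(A) polymerase, had nearly equal means of 9.27 FPKM in HFD and 9.26 FPKM in TJ, with a log2 difference of -0.002 (limma adjusted p = 0.989). Slirp was called in none of the 6 fits that left out 1 library (limma adjusted p = 0.0569 to 0.157), nor with the replicate block or with the length trend removed (limma adjusted p = 0.0924 and 0.0674).

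The same held within the enzyme that cuts mitochondrial tRNAs at their start, whose subunits include Hsd17b10 and Trmt10c. Hsd17b10, also a dehydrogenase of branched-chain amino acid breakdown, was at 49.3, 44.2 and 39.1 FPKM in HFD and 63.3, 122 and 67.5 FPKM in TJ. Its groups did not overlap, TJ 2 was highest, and the log2 difference was 0.86 ± 0.26 (limma adjusted p = 0.0566). In the fit of all libraries but ND 1, added after seeing the data, Hsd17b10 was called (limma adjusted p = 0.0254) and Slirp was not. Trmt10c was at 5.00, 6.41 and 5.56 FPKM in HFD and lower in each TJ library, at 4.11, 4.40 and 4.60 FPKM, with a log2 difference of -0.31 ± 0.14 (limma adjusted p = 0.145). Elac2, which cuts the other tRNA end, overlapped, at a log2 difference of -0.11 (limma adjusted p = 0.550).

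**Figure D2:**
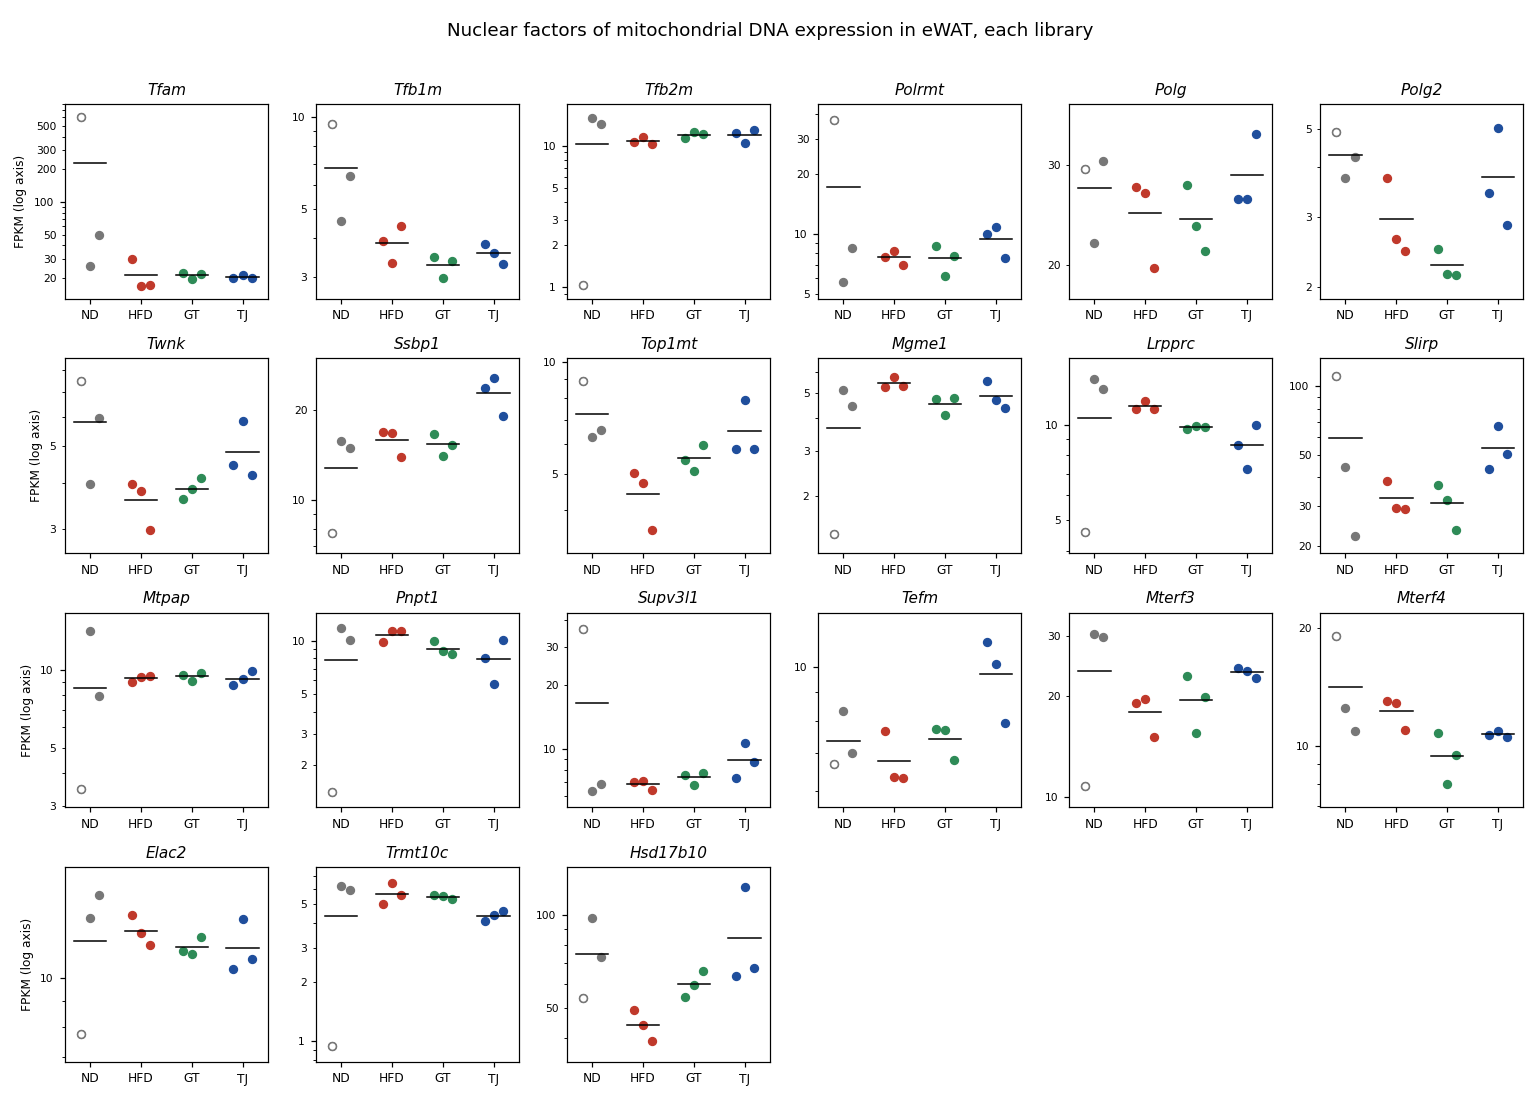
FPKM (log axis, separate range per panel) of the 21 nuclear factors in each of the 12 libraries, with the group mean as a line and ND 1 as an open circle. Slirp, Ssbp1 and Hsd17b10 show the 3 TJ libraries above the 3 HFD libraries, Lrpprc and Trmt10c show them below, and ND 1 is an extreme for 17 of the 21 genes.

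Among the nuclear-encoded partners of the mt- genes, all DEGs of this comparison were higher in TJ. Of 83 nuclear subunits of the respiratory complexes, 31 rose in TJ and none fell as DEGs, with a median log2 fold change of 0.75, next to 0.77 for the mt- genes. Of 75 mitochondrial ribosomal protein genes 15 rose and none fell, with a median of 0.48, where 7.41% of all genes were higher DEGs. With the length trend removed, 1 of the 83, 5 of the 75 and 0 of the 12 mt- genes were called, where 5.11% of all genes were higher DEGs. After rescaling on genes outside the mitochondrial genome, 27 of the 83 and 8 of the 75 were called, where 4.34% of all genes were higher DEGs. With all 12 libraries in the fit 0 of either were called, where only 1 of all 12807 genes was. The 21 expression factors, at 0.22, lay nearer to the median of all genes. Under median-of-ratios scaling, which moved the median of all genes to -0.03, the medians were 0.90 for the mt- genes and 0.34 for the factors. They were 0.57 and 0.025 after rescaling on genes outside the mitochondrial genome and 0.46 and 0.14 with the length trend removed. The gap between the mt- genes and the factors was thus nearly the same under either scaling, and narrower with the length trend removed.

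Further genes of the pathway showed small counts in both directions, where 7.41% of all genes were higher and 11.1% lower DEGs. Of 12 tested genes for mitochondrial DNA maintenance and nucleotide supply, Fbxl4 and Slc25a4, the adenine nucleotide carrier, rose by 0.59 and 0.61 and the DNA ligase gene Lig3 fell by 0.81 on the log2 scale (limma adjusted p = 0.0351, 0.0467 and 0.0295). Lig3 was at 10.1, 6.91 and 6.80 FPKM in HFD and 3.92, 4.04 and 4.16 FPKM in TJ. Of 27 genes of RNA processing and modification only Trit1, a tRNA isopentenyl transferase, rose, by 1.03 (limma adjusted p = 0.0410), and the largest difference, 1.16 in the ribosomal RNA methylase Mrm1, was not called (limma adjusted p = 0.0693). Of 9 regulators and proteases 1 was a DEG, Pprc1, a coactivator of the PGC-1 family, which fell by 0.77 (limma adjusted p = 0.0323), while the protease gene Clpp had a log2 difference of 0.98 (limma adjusted p = 0.0617). The medians of these 3 lists were -0.12, 0.03 and -0.0025.

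The second comparison asked the same of green tea extract, and it used the same HFD libraries as control. In the GT group 0 of the 12 mt- genes and 0 of the 21 nuclear factors were DEGs by limma, against 3.63% of 12766 genes, while 7 and 3 had an unadjusted p under 0.05, as did 29.3% of all genes. All 12 mt- genes had a log2 fold change above 0, against 34.6% of all genes, with a median of 0.25 against -0.12. For 9 of them all GT libraries lay above the HFD libraries, against 12.3% of all genes. The nuclear factors had a median of -0.03.

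The largest mt- differences under GT were in complex I. mt-Nd4 was at 3749, 4290 and 5183 FPKM in GT against 2673 to 3179 FPKM in HFD, a log2 difference of 0.60 ± 0.15 (limma adjusted p = 0.0621). mt-Nd5 was at 2187, 3058 and 3663 FPKM against 1631 to 2153 FPKM, a log2 difference of 0.57 ± 0.21 (limma adjusted p = 0.136), and mt-Cytb followed at 0.44 (limma adjusted p = 0.0887). None of the 3 overlapped between the groups, and GT 1 was the lowest GT library for each. mt-Nd4 and mt-Nd5 were called when GT 1 was left out, in a fit whose share of all genes called is not given here. mt-Nd6 was at 1425, 1734 and 1803 FPKM in GT and overlapped with HFD. Among the nuclear factors Hsd17b10 was higher in every GT library, at 54.4 to 65.7 FPKM, with a log2 difference of 0.43 ± 0.12 (limma adjusted p = 0.0824). Mterf4 was lower in every GT library, at 7.99 to 10.8 FPKM, with a log2 difference of -0.35 (limma adjusted p = 0.129), and Top1mt had one of 0.27 (limma adjusted p = 0.249). The 8 macrophage markers were below 0 here as well, with sums of 1365 to 3249 FPKM, and 9 of 9 adipocyte markers above 0, with sums of 7090 to 11347 FPKM. All 10 male germ cell markers were below 0, with sums of 16.6 to 79.5 FPKM, and the part of these cell types was not tested.

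Set directly against GT, the TJ group showed 0 called genes among the 12 mt- genes and the 21 factors by limma, where 0.148% of 12187 genes were DEGs, and 1 and 3 genes had an unadjusted p under 0.05, as did 24.6% of all genes. For 4 mt- genes and 5 factors all TJ libraries lay above the GT libraries, against 19.5% of all genes. The median log2 difference was 0.43 for the mt- genes, 0.20 for the factors and -0.03 for all genes. With the length trend removed these were -0.02, 0.02 and -0.04, so the direction for the mt- genes turned, and after rescaling they were 0.23, 0.03 and -0.20. mt-Nd6 differed most, at 2195 to 4211 FPKM in TJ against 1425 to 1803 FPKM in GT, a log2 difference of 0.92 ± 0.28 (limma adjusted p = 0.137). mt-Co3 and mt-Co2, at 0.72 and 0.68, did not overlap either (limma adjusted p = 0.242 and 0.207), whereas mt-Nd5 and mt-Nd4, the highest under GT relative to HFD, were at -0.07 and 0.07. Slirp was higher in each TJ library, with a log2 difference of 0.78 ± 0.22 (limma adjusted p = 0.127), as were Ssbp1 and Polg2, both at 0.53 (limma adjusted p = 0.130 and 0.168). The 8 macrophage markers were below 0 in TJ against GT, with a median of -0.85, as were the 6 tested male germ cell markers, with a median of -1.51, and 4 of 9 adipocyte markers were above 0, with a median of -0.02. Their part in the values was not tested. These tests had as few libraries as the others and do not show that the 2 supplements acted alike.

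**Figure D3:**
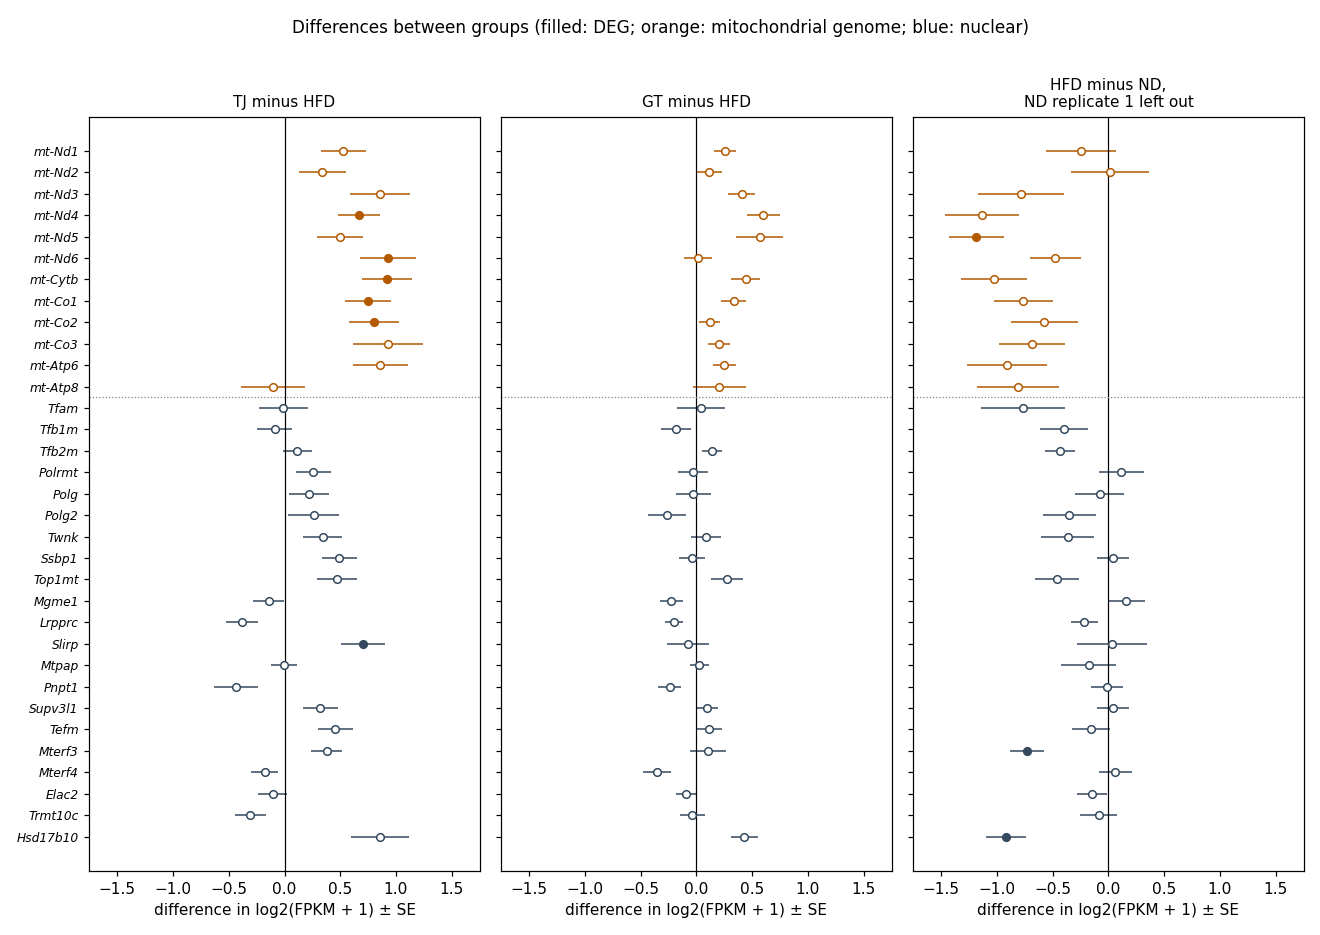
Differences in log2(FPKM + 1) with standard errors for the 33 tested genes, TJ minus HFD, GT minus HFD and HFD minus ND without ND 1, with filled points for DEGs. The mt- genes lie right of 0 in the first panel except mt-Atp8 and left of 0 in the third except mt-Nd2, and the nuclear factors scatter on both sides.

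The effect of the high-fat diet itself depended on ND 1. With all 6 libraries, 0 mt- genes and 0 nuclear factors were DEGs by limma against ND, compared with 1.77% of 14430 genes, and 0 of either had an unadjusted p under 0.05, against 11.6% of all genes. The median log2 fold change was 0.19 for the mt- genes and -0.16 for the factors, against 0.07 for all genes, and that of the mt- genes turned to -0.02 under median-of-ratios scaling. After rescaling on genes outside the mitochondrial genome the medians were 0.51 and 0.14, so that of the factors turned, and with the length trend removed the mt- median was 1.02. The largest values, 1.12 for mt-Nd2, 0.86 for mt-Atp8 and 0.71 for mt-Nd1, came from a group in which ND 1 was at 286, 967 and 479 FPKM and ND 2 at 4226, 40680 and 4974 FPKM (limma adjusted p = 0.578, 0.767 and 0.681).

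Without ND 1 the median of the mt- genes was -0.77, 1 of 12 was above 0, against 48.2% of all genes, and for 8 both remaining ND libraries exceeded all HFD libraries, against 19.2% of all genes. In the fit of the 5 libraries mt-Nd5 was then called and no other mt- gene, where 15.4% of 13661 genes were DEGs and 4.34% were lower ones, at 5519 and 3602 FPKM in ND against 1631 to 2153 FPKM in HFD. It fell by 1.18 ± 0.25 on the log2 scale (limma adjusted p = 0.0345), and mt-Nd4 and mt-Cytb, at -1.14 and -1.03, were not called (limma adjusted p = 0.0815 and 0.0775). With the GT and TJ libraries added to the fit, 4 mt- genes were called lower in HFD, against 6.44% of all genes. With the replicate numbers as a block, none of the mt- genes or factors was called without ND 1, mt-Nd5 being at -1.05 (limma adjusted p = 0.197), and 0.483% of all genes were lower DEGs. With Prm1-rich ND 3 and HFD 1 left out as well, from the fit with the GT and TJ libraries, 5 mt- genes were called lower, against 4.75% of all genes, and the median was -1.14, but ND 2 was then the only ND library and was assumed to vary like the other groups in the fit. The median of the nuclear factors without ND 1 was -0.16. All 8 macrophage markers were higher in HFD, with sums of 3862 to 5682 FPKM against 424 to 549 FPKM in ND 2 and ND 3. Of the 9 adipocyte markers 8 were lower in HFD, 6 of them as DEGs, with a median of -0.93 and sums of 5499 to 5591 FPKM against 9477 to 9735 FPKM, and the ninth was a DEG higher in HFD. With the replicate block 0 adipocyte markers were called lower, at a median of -0.96, and 1 was called higher, while all 8 macrophage markers were still called. The 10 male germ cell markers were all below 0, with a median of -2.26 and overlapping groups. With ND 1 included, 4 of the 8 macrophage markers were DEGs, all 8 still above 0, and no adipocyte marker was, 5 of the 9 lying above 0 at a median of 0.12, while the germ cell median was -4.46. The part of these cell types in the mt- values was not tested.

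Of the nuclear factors, Hsd17b10 and Mterf3 were DEGs without ND 1. Hsd17b10 was at 97.4 and 72.9 FPKM in ND 2 and ND 3 and 39.1 to 49.3 FPKM in HFD, and fell by 0.92 ± 0.18 on the log2 scale (limma adjusted p = 0.0267). Mterf3, at 30.4 and 29.8 FPKM against 15.1 to 19.5 FPKM, fell by 0.73 ± 0.15 (limma adjusted p = 0.0337). With the replicate block neither was called, at -1.002 and -0.774 (limma adjusted p = 0.0839 and 0.160), nor was either in the fit that also left out ND 3 and HFD 1. With ND 1 included, Hsd17b10 was still lower in every HFD library, at a log2 difference of -0.71 (limma adjusted p = 0.477), whereas Mterf3 overlapped, because ND 1 was at 10.8 FPKM. The largest nuclear values with all libraries were -2.12 for Tfam, 0.76 for Pnpt1 and -0.72 for Supv3l1 (limma adjusted p = 0.494, 0.574 and 0.583). Without ND 1 they were -0.77, -0.01 and 0.04, so all 3 rested largely on that library.

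ND 1 stood apart in both gene classes. Its mt- genes summed to 17247 FPKM, or 1.72% of all FPKM, against 60224 to 148296 FPKM and 11.1% to 24.4% in the other 11 libraries. Tfam was at 609 FPKM in ND 1 and at 17.1 to 50.2 FPKM elsewhere, and Slirp at 112 FPKM, Polrmt at 37.1 FPKM and Supv3l1 at 36.2 FPKM also exceeded every other library. In total 8 of the 21 factors were above and 9 below all other libraries there, the lowest including Tfb2m at 1.04 FPKM and Trmt10c at 0.946 FPKM. Over the other libraries, the 3 highest Tfam levels, 50.2 FPKM in ND 3, 30.1 FPKM in HFD 1 and 25.7 FPKM in ND 2, occurred in the 3 libraries with the most Prm1. The part of germ cell and epididymis RNA in the values of ND 1, and of germ cell RNA in these Tfam values, was not tested.

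**Figure D4:**
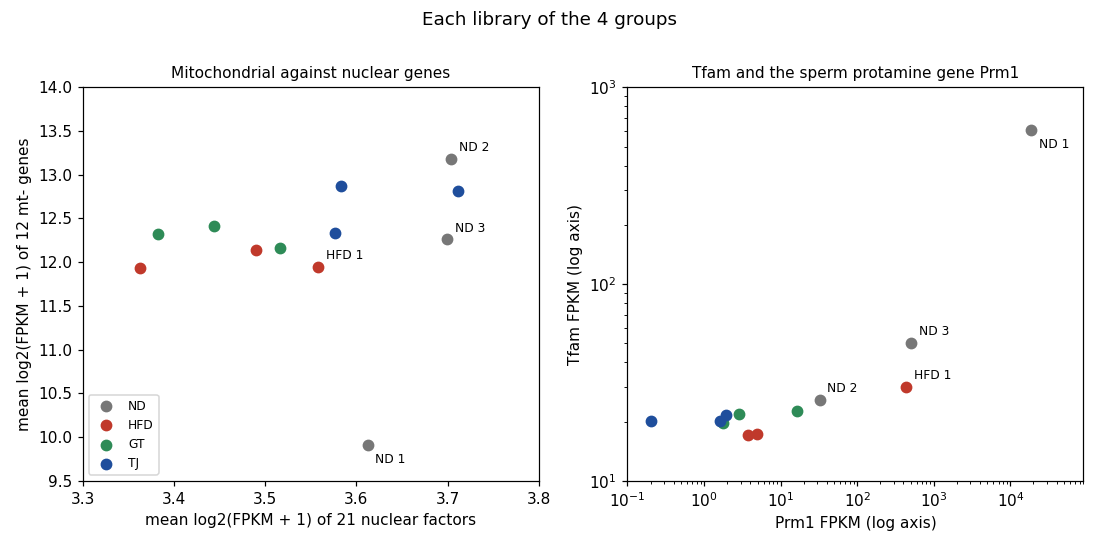
Left, mean log2(FPKM + 1) of the 12 mt- genes against that of the 21 nuclear factors in each library; right, FPKM of Tfam against FPKM of Prm1 on log axes. ND 1 lies far below the other libraries at left, at 9.91 against 11.9 or more, and at the upper end of both axes at right.

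Promoter sequences were available for 18 of the 21 nuclear factors (RefSeq, GRCm38.p6, 250 bases before to 50 after the start). A core of the ETS-type motif bound by the nuclear respiratory factor GABP, CCGGAAG on either strand, was found in 10 of these 18 genes, Mterf4, Polg, Polg2, Polrmt, Slirp, Ssbp1, Tefm, Tfam, Trmt10c and Twnk, against 8.86% of 32817 promoters. For each motif, a gene counted when any of its promoters held the core, whereas the percentages are over single promoters, so the measures are unlike. The NRF1 core GCATGCG occurred in Polrmt and Tfb2m (3.57% of all promoters), the YY1 core AAGATGG in Hsd17b10, Mgme1 and Slirp (6.34%), and the ERR core AAGGTCA in Twnk (4.72%). Slirp was the only factor called for TJ against HFD, and in none of the 6 fits that left out 1 library. Its promoter and that of Tfam, which was called in none of the 4 comparisons, are shown with every match in capitals (Tfam chr10:71237995-71238294, minus strand, and Slirp chr12:87443646-87443945, plus strand).
Tfam: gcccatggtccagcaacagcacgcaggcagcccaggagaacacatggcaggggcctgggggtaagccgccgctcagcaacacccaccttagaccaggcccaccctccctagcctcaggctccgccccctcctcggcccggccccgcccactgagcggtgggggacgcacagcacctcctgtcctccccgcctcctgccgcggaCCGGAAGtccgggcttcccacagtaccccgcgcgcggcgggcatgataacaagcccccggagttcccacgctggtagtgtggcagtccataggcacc
Slirp: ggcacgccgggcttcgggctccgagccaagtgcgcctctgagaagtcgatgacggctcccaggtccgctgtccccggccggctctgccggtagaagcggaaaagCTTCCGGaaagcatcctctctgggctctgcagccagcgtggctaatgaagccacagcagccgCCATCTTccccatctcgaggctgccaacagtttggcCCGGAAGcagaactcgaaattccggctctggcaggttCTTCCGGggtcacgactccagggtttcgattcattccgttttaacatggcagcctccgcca
The Tfam promoter held 1 GABP core and the Slirp promoter 3, with 1 YY1 core on the minus strand. Both genes thus held the GABP letters, of the 2 only Slirp was called in TJ, and Trmt10c, lower in each TJ library, held them as well. A match is a stretch of letters and not a measured binding site.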

How the data were processed

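RNA of eWAT from 12 mice was sequenced as mRNA libraries made with a kit that does not mark strand. Per the labels and the published methods, the authors mapped reads with STAR (2.4.0 in the submitters' processing notes) to Ensembl release 72 and deposited FPKM from Cufflinks 2.1.1, with noncoding regions masked and corrections for multireads and fragment bias. The methods name a human genome, whereas the identifiers are mouse. Counts behind the authors' own tests were not used here.

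The test was limma (version 3.58.1, under R 4.3.3; lmFit, then eBayes with trend) on log2(FPKM + 1) of the deposited FPKM, fitted to the 6 libraries of each comparison without covariates. A gene entered when its mean over those 6 reached 1 FPKM. DEGs had a Benjamini-Hochberg adjusted p under 0.05 over all tested genes and at least 1.5-fold change, and fold changes of low genes are understated by the pseudocount of 1. P-values measure the spread between these mice. Names and coordinates came from GENCODE M21 (GRCm38), promoters from RefSeq, and tables were handled with pandas 2.3.3 in python 3.11.15. The scripts were tested on simulated data.

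The members and all gene lists were chosen with earlier results of these data known, and the marker and pathway lists were written from general knowledge. Every tested member was given its fold change for TJ against HFD. For the other comparisons these were given for members called and for the 3 mt- genes and 3 factors with the largest values, and for the other pathway lists the called members and the 2 largest for TJ against HFD. The nuclear respiratory subunits, the ribosomal proteins and the markers, which the rule also covered, are given only as counts, medians and sums. In the text, mt-Nd4, mt-Nd5, mt-Nd6 and mt-Cytb are also given in comparisons where this rule did not name them, and were added after their values were seen.

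The labels give each library a replicate number. Same-numbered libraries deviated together from their group means between HFD and ND (r across genes 0.55, 0.34 and 0.12) and not in every pair in the other comparisons. The 0.55 was between HFD 1 and ND 1, both among the libraries over 100 FPKM of Prm1. A pairing by number was therefore considered for HFD against ND only, from the data and not from the labels. It enters the replicate block and not the main fit. The differently numbered HFD 3 and ND 2 correlated more, at 0.63, so the numbers are not shown to pair the libraries. Alternatives were a pseudocount of 0.1, no filter, median-of-ratios scaling, rescaling on genes outside the mitochondrial genome, all 12 libraries in the fit, the replicate block, removal of the transcript length trend and leaving out each library. Fits of 11 libraries without ND 1, and of 9 without the 3 libraries over 100 FPKM of Prm1, were added after seeing the data, as was the block without ND 1.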

Additional observations from a re-analysis of the deposited data

How the results depend on the processing

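For TJ against HFD, the count of mt- genes called, 5 as reported, was 3 with a pseudocount of 0.1 FPKM and 3 with median-of-ratios scaling. It was 2 after rescaling on genes outside the mitochondrial genome, where 4.34% of all genes were higher DEGs. With the length trend removed it was 0, where 5.11% of all genes were higher DEGs. With all 12 libraries in the fit it was 0 too, but there only 1 of all 12807 genes was called. It was also 0 with no filter on low values. The shares of all genes for the pseudocount and no-filter fits are not given here. The fit of 11 libraries without ND 1, added after seeing the data, gave 5, but not the same 5. They held 1 gene of complex I and 3 of complex IV, against 2 and 2 as reported. Leaving out each library gave 0 to 9. The median of the mt- genes moved to 0.46 with the length trend removed and stayed between 0.64 and 0.96 over the libraries left out. The nuclear count of 1 was 2 after scaling by median-of-ratios, and 0 without the filter, after rescaling or with all 12 libraries, and 0 to 2 over the libraries left out. The nuclear median was 0.34 with median-of-ratios scaling, 0.025 after rescaling and 0.080 to 0.26 over the libraries left out.

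With the replicate block, TJ against HFD gave 0 mt- genes and 0 nuclear factors, and the block changed no call of the 6-library fits in the other comparisons. Without ND 1, where mt-Nd5, Hsd17b10 and Mterf3 were called, the block gave 0 mt- genes and 0 nuclear factors. There mt-Nd1 was at -0.23, mt-Atp8 at -0.75 and Supv3l1 at 0.026, turned from the fit with ND 1. The numbers of TJ and HFD libraries did not pair them (r of same numbers -0.03, -0.05 and 0.23).

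For HFD against ND, 4 mt- genes and 2 nuclear factors were called in the fit of 11 libraries, and 5 mt- genes with a median of -1.14 in the fit of 9. Over the libraries left out the mt- count was 0 to 1 with medians from -0.77 to 1.03, and the nuclear count 0 to 2. The mt- median of 0.19 was -0.020 with median-of-ratios scaling, 0.51 after rescaling and 1.02 with the length trend removed. The nuclear median was -0.36 with median-of-ratios scaling and 0.14 after rescaling. For GT against HFD, 1 mt- gene was called with the length trend removed and 0 to 2 over the libraries left out. The shares of all genes called in those fits are not given here, so these counts cannot be set against them. The nuclear median was 0.072 with median-of-ratios scaling. For TJ against GT, the mt- median was -0.024 with the length trend removed, and the nuclear median 0.029 after rescaling, 0.017 with the length trend removed and 0.10 to 0.25 over the libraries left out. The cause of these changes was not tested, except that fits with all 12 libraries include the spread of ND 1.

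Among the directions that turned for TJ against HFD, mt-Nd2 had a log2 difference of 0.34 as reported. With median-of-ratios scaling mt-Atp8 was at 0.026, Tfam at 0.11, Tfb1m at 0.011, Mtpap at 0.11 and Elac2 at 0.0098. With the length trend removed mt-Nd2 was at -0.030, mt-Atp8 at 0.29, Tfam at 0.067 and Mtpap at 0.021, and after rescaling Tfb2m was at -0.068. Over the libraries left out mt-Atp8 ranged from -0.27 to 0.13, Tfam from -0.14 to 0.25 and Mtpap from -0.044 to 0.036. For HFD against ND, mt-Nd1 turned to -0.25 in the fit of 11 libraries and -0.72 in that of 9, mt-Atp8 to -0.81 and -1.14, Pnpt1 to -0.015 and -0.055, Supv3l1 to 0.040 and 0.067, and mt-Nd2 to -0.46 in the fit of 9. Over the libraries left out mt-Nd1 ranged from -0.25 to 1.44, mt-Atp8 from -0.81 to 1.88, Pnpt1 from -0.015 to 1.20 and Supv3l1 from -1.13 to 0.040. With 3 libraries a group and approximate depths, counting error of single values could not be given.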

Other observations

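The 12 mt- genes were not equally low in ND 1. mt-Nd3, mt-Nd6, mt-Co2 and mt-Co3 were 1.34 to 1.64 times lower there than the median of the other 11 libraries, whereas the other 8 were 7.30 to 21.3 times lower, with mt-Atp8 at the upper end. This set of 4 was chosen after the values were seen. Its share of the summed mt- FPKM was 68.2% in ND 1, 36.0% in TJ 2, 27.6% in TJ 1, 25.6% in TJ 3, 21.9% to 26.2% in HFD, 22.0% to 24.6% in GT, and 23.0% and 21.6% in ND 2 and ND 3. In TJ 2 these genes were the highest of the TJ group, as were mt-Cytb, mt-Co1 and mt-Atp6, while mt-Atp8, at 11.5% of the mt- sum against 18.8% in TJ 1 and 22.3% in TJ 3, was the lowest.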
